A study of Carthamus tinctorius with 15 samples.

Results

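Genes that safflower (Carthamus tinctorius, a thistle relative grown for oil and dye) expressed in both root and stem, and less in leaf and flower, are described here. Of 33242 rows in the expression table, 279 were members. They were chosen by their measured level m, the mean of log2(FPKM + 1) over the 3 libraries of a tissue, where FPKM are reads scaled by the length of the gene and the total of the library. For a member, the lower of m in root and stem exceeded the higher of m in leaf and flower by at least 2, a distance called the gap below. In addition, m in root and m in stem differed by less than 2. A cap of 300 genes was not reached. Every difference between root or stem on the one side and leaf or flower on the other is therefore a description with no test.

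The study sampled root, stem, leaf and flower with 3 libraries each, 12 in all. A further tissue of the series, seed, was not analysed here. The labels give the tissue and a replicate number, and no genotype, age, growth stage or treatment for these 4 tissues. Whether the 3 libraries of a tissue stem from different plants is not said, so p-values measure the spread between libraries, which may be technical. The table carries no gene names, so a gene is given by its row, counted from 1, and its length in bases as recovered from the values. For the same reason the tissue labels could not be checked against marker genes, and no function is given to any row.

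Root and stem together form the axis of a plant. Both contain vascular strands, with xylem that conducts water and has thickened, lignified walls, and phloem that carries sugars. Leaf is the main photosynthetic organ, and the flower holds the reproductive organs. In whole organs, fewer cells of a type and less RNA per cell cannot be told apart.

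Library totals ran from 26183138 to 31500664 reads. Replicates differed by more than counting noise. Over members with at least 30 reads in a pair of libraries, replicate variance was 2.65 to 5.69 times that of Poisson counting in the 10 pairs without flower replicate 1. It was 7.61 and 8.92 times in the pairs of flower replicate 1 with flower replicates 2 and 3. Flower replicate 1 was the highest of its tissue for 47.3% of the members, against 48.4% of the 20769 genes that reached 1 FPKM in 3 or more libraries, which are the genes tested below. Some values that rest on this library are therefore also given without it.

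The members were abundant in root and stem and scarce in flower. By the median over the 279 genes, the mean level was 60.7 FPKM in root and 40.8 FPKM in stem, against 3.48 FPKM in leaf and 0.441 FPKM in flower. The same medians over the 20769 genes tested were 11.9 FPKM in root and 12.1 in stem, against 11.1 in leaf and 6.95 in flower. At 100 FPKM or more stood 104 members (37.3%) in root and 76 (27.2%) in stem, against 7 (2.51%) in leaf and 5 (1.79%) in flower. Over all genes tested these shares were 7.32% in root and 7.38% in stem, against 6.46% in leaf and 6.81% in flower. The rule sets these contrasts, so nothing is read from the counts. Together the members held 6.32% ± 0.0355 of all FPKM in root and 4.73% ± 0.0228 in stem, against 0.611% ± 0.00316 in leaf and 0.255% ± 0.00134 in flower (SD, n = 3 libraries each). The 10 highest members made up 32.8% of the members' sum in root and 42.4% in stem.

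**Figure D1:**
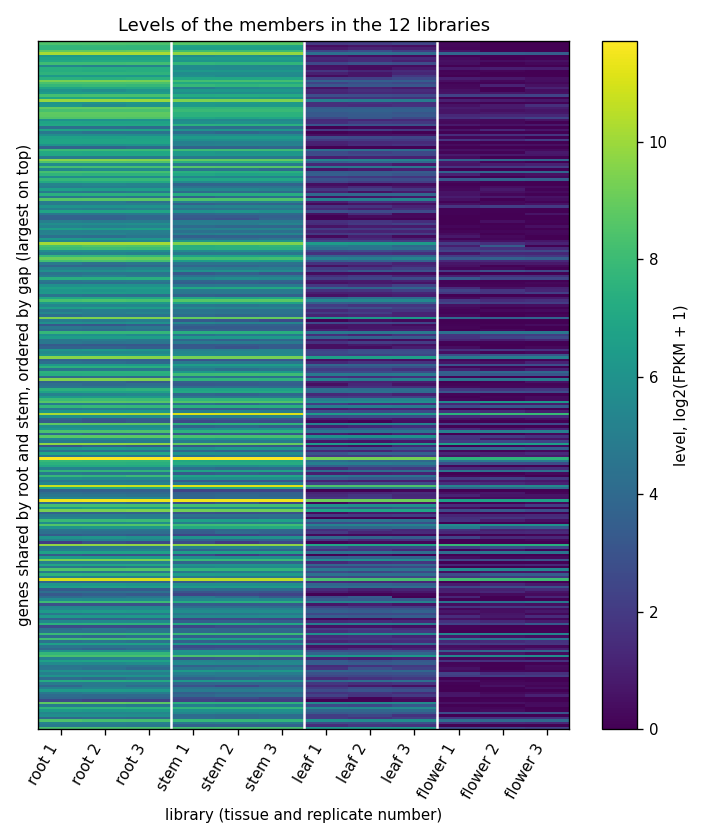
Level of each of the 279 members (rows, ordered by gap with the largest on top) in each of the 12 libraries (columns, by tissue and replicate number), coloured by log2(FPKM + 1). The 3 libraries of a tissue look alike, root and stem are brighter than leaf and flower in every row, and flower is darker than leaf in most rows.

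The gap ran from 2.002 to 6.60, with a median of 2.57. It was under 2.5 in 132 members, from 2.5 to under 3 in 62, from 3 to under 4 in 48, from 4 to under 5 in 29, and 5 or more in 8. Over all genes tested the median of the same distance was -0.33. In FPKM, the lower of the root and stem means was 8.23 times the higher of the leaf and flower means at the median member, at least 10 times in 116 members and at least 100 times in 8. A difference between a pair of tissues is called below where limma's adjusted p was under 0.05 and its size on the log2(FPKM + 1) scale was 1 or more. All 279 members were called higher in root and stem than in leaf and flower in all 4 pairs, as were 5.95% of all genes tested. The rule used these contrasts, and nothing is read from the count. In all 279 members each of the 6 root and stem libraries also lay above each of the 6 leaf and flower libraries, as in 24.8% of all genes tested. All 279 members passed the filter on low values, which they did through root and stem, where the rule asks for a level.

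Around the limit the values were continuous. The members with the smallest gap were row 27992 (1954 bases) and row 9889 (1278 bases), both at 2.002. Row 27992 averaged 324 ± 2.40 FPKM in root and 305 ± 3.27 in stem, against 75.5 ± 1.36 in leaf and 4.29 ± 0.561 in flower (SD, n = 3). Just below the limit, and no member, was row 24117 (2418 bases), at 118 ± 4.31 FPKM in root and 106 ± 2.22 in stem, against 25.7 ± 0.743 in leaf and 14.4 ± 1.51 in flower. Row 25069 (891 bases) was also just outside, with 99.0 ± 3.07 FPKM in root and 122 ± 3.68 in stem, against 17.9 ± 2.38 in leaf and 24.1 ± 2.16 in flower. There were 42 members with a gap under 2.1, and 35 rows between 1.9 and 2 that met the other condition. A further 20 rows had a gap of at least 2 but differed by 2 or more between root and stem, of which 19 had more in root and 1 more in stem.

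The only reading of the gap in libraries that had not picked the rows came from holding out 1 replicate number. All 12 libraries had fed the rule that defined the members, and the replicates may be technical. A gap that was kept therefore describes how well the libraries of a tissue repeat each other, and no more. Rows picked on the 8 libraries of the other numbers mostly kept a gap of at least 2 in the 4 held-out libraries. With replicate 1 held out, 240 of 272 picked rows (88.2%) did so, against 1.48% of all genes tested. With replicate 2 held out it was 240 of 274 (87.6%), against 1.48% of all genes, and with replicate 3 held out 242 of 282 (85.8%), against 1.41%. A held-out gap of at least 1.5 was found for 265, 270 and 277 of the picked rows in these 3 turns. The lowest held-out gap was 0.10, in row 17279 with replicate 3 held out.

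**Figure D2:**
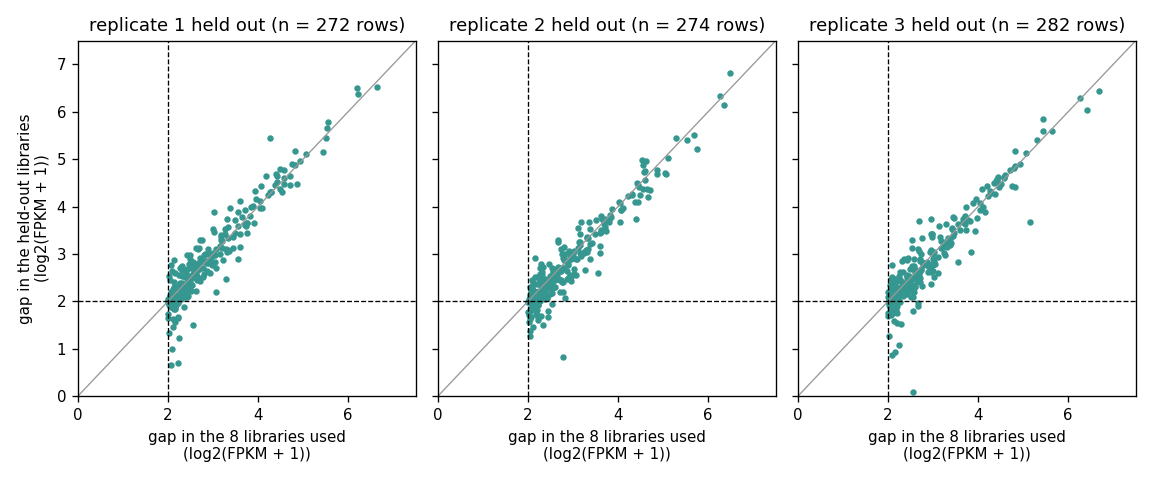
Gap in the held-out libraries (vertical) against the gap in the 8 libraries used to pick the rows (horizontal), both on the log2(FPKM + 1) scale, for each replicate number held out. Points are rows, dashed lines mark a gap of 2, and the grey line marks equal values; 240 of 272, 240 of 274 and 242 of 282 rows lie above the horizontal dashed line.

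The largest gaps belonged to rows 23698, 607, 32620, 17614, 20837 and 27385. Row 23698 (562 bases, gap 6.60) had 935, 957 and 903 FPKM in root and 606, 585 and 585 in stem. In leaf it had 5.58, 4.18 and 5.72 FPKM, and in flower 2.81, 1.21 and 2.28. No library of leaf or flower came within 100-fold of any library of root or stem.

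Row 607 (1974 bases, gap 6.29) was higher in stem than in root in every library. Its levels were 349, 346 and 343 FPKM in root and 391, 397 and 398 in stem. The leaf libraries had 2.90, 3.28 and 4.26 FPKM, and the flower libraries 0.233, 0 and 0. All 14 of its flower reads came from flower replicate 1, so that without this library no flower read was found.

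Row 32620 (1893 bases, gap 6.28) combined high levels in the axis with very low ones elsewhere. It had 219, 222 and 216 FPKM in root and 111, 110 and 110 in stem, against 0.342, 0.553 and 0.404 in leaf and 0.191, 0 and 0 in flower. Root exceeded leaf 506-fold and stem exceeded leaf 254-fold. Its 11 flower reads too were all in flower replicate 1. Row 17614 (2247 bases, gap 5.63) had 213, 208 and 209 FPKM in root and 96.8, 100.4 and 97.1 in stem, against 0.777, 1.22 and 1.03 in leaf and 0.161, 0 and 0.0146 in flower. In both rows every root library lay above every stem library.

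Row 20837 (775 bases, gap 5.58) had 458, 454 and 473 FPKM in root and 272, 257 and 248 in stem. In leaf it had 4.38, 5.90 and 3.33 FPKM and in flower 0.594, 0.0439 and 0. Row 27385 (543 bases, gap 5.49) had the highest level of the 6 in both root and stem, with 1161, 1181 and 1184 FPKM in root and 880, 854 and 893 in stem. It was also the highest of them in leaf, at 19.2, 19.1 and 17.5 FPKM, and in flower, at 13.5, 10.7 and 10.03. Its leaf and flower libraries did not overlap.

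**Figure D3:**
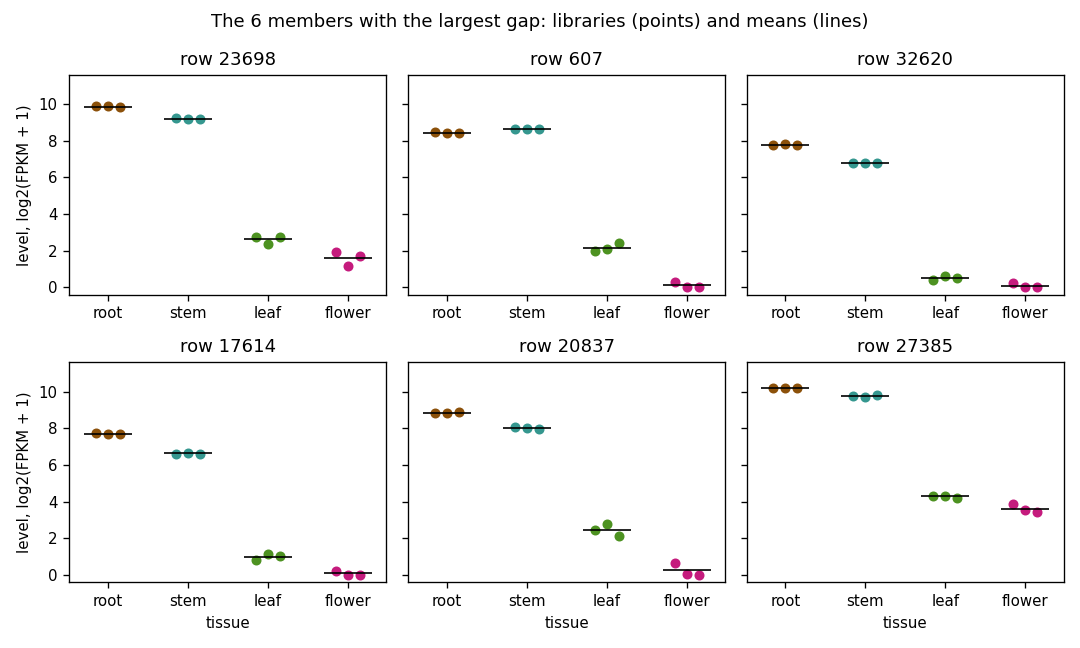
Levels, as log2(FPKM + 1), of the 6 members with the largest gap in root, stem, leaf and flower. Points are the 3 libraries of a tissue and lines their mean; root and stem points lie far above leaf and flower points in every panel, and stem is above root in row 607 alone.

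The most abundant members had much smaller gaps. Row 2393 (708 bases, gap 2.37) had 3244, 3249 and 3197 FPKM in root and 3354, 3385 and 3333 in stem, against 625, 623 and 619 in leaf and 193, 198 and 197 in flower. It was the highest member in every tissue but flower. Row 5500 (1125 bases, gap 2.31) averaged 2779 ± 53.9 FPKM in root and 2841 ± 39.9 in stem, against 561 ± 7.23 in leaf and 104 ± 3.90 in flower (SD, n = 3). Row 30344 (1635 bases, gap 2.32) averaged 1742 ± 34.3 in root and 2237 ± 10.2 in stem, against 347 ± 2.104 in leaf and 42.8 ± 4.89 in flower.

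Row 13787 (1664 bases, gap 2.16) was the only one of these 4 with a higher level in root than in stem. It averaged 1991 ± 14.5 FPKM in root and 1442 ± 12.3 in stem, against 323 ± 5.39 in leaf and 277 ± 12.7 in flower (SD, n = 3), where it was the highest member. These 4 genes exceeded leaf 4.47-fold to 6.44-fold in root and stem means, whereas the 6 with the largest gap exceeded it 47.2-fold to 506-fold. A high level did not in general go with a small gap. The 93 members with the highest mean over root and stem, at a median of 230 FPKM, had a median gap of 2.77. The 93 lowest, at a median of 17.0 FPKM, had one of 2.40, where the added pseudocount understates differences of low genes.

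Root was the higher of the axis tissues for most members. By m, 231 of 279 (82.8%) were higher in root, against 57.1% of all genes tested, and the median member was 1.55 times as high in root as in stem by mean FPKM. The median of root minus stem on the log2(FPKM + 1) scale was 0.60 over the members and 0.08 over all genes tested. By limma 78 members (28.0%) were called higher in root than in stem, against 8.93% of all genes tested. The number called higher in stem than in root was 0, against 11.0% of all genes. Without the threshold on size, limma's adjusted p was under 0.05 for 194 members with more in root and for 20 with more in stem. The unadjusted p was under 0.05 for 22 with more in stem. Over the 20769 genes tested, limma's adjusted p was under 0.05 for 7124 with more in root and 5248 with more in stem. The unadjusted p was so for 5532 with more in stem. The rule itself limits this difference to under 2 in either direction, so nothing is read from these counts. The range reached from -0.94 to 1.99.

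Members that leaned to root came close to the limit of the rule. Row 19369 (816 bases), with the largest root minus stem difference, had 35.6, 34.6 and 34.9 FPKM in root and 7.90, 8.72 and 7.62 in stem, a difference of 1.99 (SE 0.087). Its leaf mean was 1.18 ± 0.179 and its flower mean 0.204 ± 0.0449 FPKM (SD, n = 3). Row 3760 (1088 bases), with a difference of 1.98 (SE 0.130), had 49.5, 48.9 and 47.2 FPKM in root and 11.5, 13.4 and 10.01 in stem. Its 3 leaf libraries held 33 to 62 reads and its flower libraries 2, 0 and 1.

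Row 23394 (532 bases), with a difference of 1.96 (SE 0.163), had 31.2, 28.9 and 31.6 FPKM in root and 9.07, 7.66 and 5.04 in stem. It had 1, 6 and 3 reads in the leaf libraries and none in flower. A total of 3 reads over the 3 flower libraries would be 0.0625 FPKM, so root was at least 489-fold and stem at least 116-fold higher than flower, counting error only. In all, 10 members had 0 reads in the 3 flower libraries, with root means of 4.97 to 81.2 FPKM. No member had 0 reads in the 3 leaf libraries. For 22 members every flower read came from flower replicate 1, for 1 from replicate 2 and for 4 from replicate 3.

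Members that leaned to stem were fewer and less unequal. Row 10341 (1698 bases), at -0.94 for root minus stem (SE 0.376), had 69.4, 74.6 and 74.5 FPKM in root and 139.8, 138.8 and 143.3 in stem. The root and stem libraries did not overlap. The wide SE came from flower, at 28.9, 6.90 and 7.69 FPKM, and was 0.066 without flower replicate 1. Row 14085 (741 bases), at -0.87 (SE 0.088), had 24.3, 20.6 and 24.9 FPKM in root and 39.5, 45.5 and 44.9 in stem, against 4.28, 4.33 and 4.55 in leaf. In flower it had 1 read, in replicate 3.

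Row 18674 (1007 bases), at -0.82 (SE 0.095), was among the abundant members, with 1183, 1190 and 1224 FPKM in root and 2143, 2093 and 2113 in stem. It was also one of the few with more in flower than in leaf, at 83.9, 82.6 and 85.9 FPKM in leaf and 176, 242 and 238 in flower. The order of all 4 tissues by m was root, stem, leaf, flower in 202 members (72.4%). It was stem, root, leaf, flower in 45, root, stem, flower, leaf in 29, and stem, root, flower, leaf in 3.

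Leaf had the higher level of the low tissues in most members. The rule uses both levels, since it sets a ceiling for the higher one, so the counts that follow are descriptions of the chosen genes and nothing is read from them. By m, 247 of 279 members (88.5%) were higher in leaf than in flower, against 62.3% of all genes tested. By limma 146 members (52.3%) were called higher in leaf, against 37.1% of all genes tested, and 6 (2.15%) higher in flower, against 18.6%. The median of leaf minus flower was 1.18 over the members and 0.48 over all genes tested. After median-ratio scaling, which sets libraries to the same median gene, these medians were 0.95 and 0.12. Under that scaling 132 members were called higher in leaf, against 30.3% of all genes tested, and 15 higher in flower, against 25.3%. At 1 FPKM or more in leaf and under 1 FPKM in flower stood 120 members, 105 reached 1 FPKM in both, 49 in neither, and 5 in flower alone. These classes were not counted over all genes. Among all rows, 18552 to 18574 reached 1 FPKM in a leaf library, against 16142 to 16470 in a flower library.

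The widest leaf and flower differences were found where flower was almost silent. Row 16062 (1783 bases) had 44.3, 46.7 and 45.5 FPKM in leaf and 0.203, 0.153 and 0 in flower, a difference of 5.38 (SE 0.067). In root it had 191, 192 and 181 FPKM and in stem 200.3, 204 and 212. Row 13282 (1977 bases), with a difference of 5.02 (SE 0.052), had 43.5, 43.5 and 44.9 FPKM in leaf and 0.432, 0.448 and 0.282 in flower. It averaged 438 ± 10.1 FPKM in root and 182 ± 1.42 in stem (SD, n = 3). Row 23363 (1419 bases), with a difference of 4.92 (SE 0.070), had 31.8, 34.9 and 37.8 FPKM in leaf and 0.208, 0.0960 and 0.254 in flower. In these 3 rows the root mean was 4.13 to 9.98 times the leaf mean and over 1000 times the flower mean.

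In 6 members flower was called higher than leaf. Row 549 (2258 bases) had 2.62, 2.71 and 2.62 FPKM in leaf and 24.2, 21.0 and 21.1 in flower, a leaf minus flower difference of -2.66 (SE 0.056). Its root libraries had 276, 282 and 273 FPKM and its stem libraries 98.1, 94.5 and 97.4. Row 32888 (3642 bases), at -1.67 (SE 0.106), had 0.533, 0.488 and 0.664 FPKM in leaf and 3.17, 4.62 and 4.22 in flower, with 25.5 ± 0.945 in root and 26.1 ± 1.10 in stem (SD, n = 3). Root and stem overlapped in this row. Row 10286 (576 bases), at -1.66 (SE 0.106), had 1 leaf read in all and 2.05, 2.54 and 2.11 FPKM in flower, with 39.1, 35.8 and 32.2 FPKM in root and 13.0, 14.2 and 16.4 in stem.

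**Figure D4:**
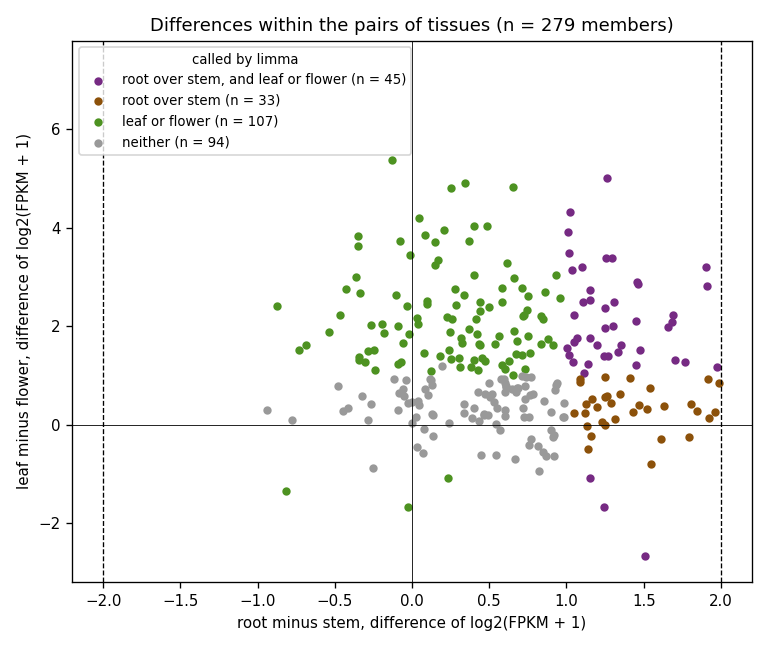
Root minus stem (horizontal) against leaf minus flower (vertical), both as differences of log2(FPKM + 1), for the 279 members. Colours mark the calls by limma, and dashed lines the limits set by the rule; 33 members were called for root over stem alone, 107 for leaf or flower alone, 45 for both and 94 for neither.

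Of the 78 members called higher in root than in stem, 42 were also called higher in leaf than in flower, 3 higher in flower, and 33 neither. Among the other 201 members these counts were 104, 3 and 94. Over all genes tested, 37.1% were called higher in leaf than in flower and 18.6% higher in flower. These genes were not split by root and stem, so nothing is read from the split of the members. The median root minus stem difference was 0.71 in the 93 members with the largest gap, 0.58 in the middle 93 and 0.54 in the 93 with the smallest. These are descriptions of genes chosen on the same levels.

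Replicates varied little where the members were high. The median SD between the 3 libraries on the log2(FPKM + 1) scale was 0.049 in root and 0.056 in stem, against 0.127 in leaf and 0.146 in flower. Over all genes tested it was 0.089 in root and 0.088 in stem, against 0.088 in leaf and 0.142 in flower. The read numbers differed in the same order, with a median of 1967 reads per library in root and 1245 in stem, against 124 in leaf and 16.7 in flower. Levels in flower thus often rest on a few reads. The widest spread in stem and in leaf was that of row 13574, picked after its values were seen. The root libraries held 11, 12 and 16 of its reads and the stem libraries 19, 12 and 7, against 4, 7 and 0 in the leaf libraries and 1, 0 and 1 in the flower libraries. Its recovered length of 24 bases was the shortest of the members and may be too short, in which case these read numbers are too low. The rule used FPKM and not the recovered length. Its gap was 1.45 in replicate 1 and 0.83 in replicate 2 when these were held out. With replicate 3 held out it was not picked, so its place among the members is uncertain.

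Lengths, which the rule did not use, were shorter at the median and upper quartile than over all genes tested. The median length was 1194 bases over the members and 1350 over all genes tested, with quartiles of 754.5 and 1696 against 745 and 2059. Genes under 500 bases made up 10.8% of the members and 15.4% of all genes tested, and genes of 3000 bases or more 3.94% and 9.23%. By the same kind of rule, 281 rows were shared by stem and leaf and 314 were high in root alone by at least 2. Their median lengths were 1214 and 1143 bases, close to that of the members. The difference in length was not tested, and recovered lengths may be too short for rows with few reads.

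Some members lay in neighbouring rows. The order of rows in the table is not explained in the sources used here. There were 14 pairs of members in consecutive rows and no longer run. Thus 28 of 279 members (10.04%) had another member next to them. Members made up 0.839% of all rows. A row has a neighbour on each side, so rows in random order would have a member next to them more often than 0.839%. By the same kind of rule, the share was 14.3% for the 314 genes high in root alone and 11.4% for the 281 genes shared by stem and leaf. It was lower, at 6.93% for the 101 genes shared by root and flower, 6.90% for the 58 genes high in stem alone and 0% for the 78 genes shared by leaf and flower. The smaller sets also make up less of the table, and these shares were not tested against each other. Tested rows next to a member that were not members themselves had a gap of at least 1 in 31 of 378 cases (8.20%), against 4.68% of all tested rows outside the members. The sources used here do not say how reads that match several genes were counted, so the level of a row with a near-identical copy is uncertain.

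In all 14 pairs both rows were on the same side of root minus stem, and in 13 on the same side of leaf minus flower. Since 82.8% of all members were higher in root and 88.5% higher in leaf, most pairs of members lie on the same side whether or not they are neighbours, and nothing is read from these counts. Rows 27071 (2040 bases) and 27072 (273 bases) had gaps of 4.80 and 4.54 and were picked from the 14 pairs because the lower gap of the pair was the largest. Row 27071 had 161, 156 and 152 FPKM in root and 51.1, 49.9 and 50.5 in stem, against 0.555, 0.296 and 0.718 in leaf and 0.741, 0.968 and 0.836 in flower. Row 27072 had 117, 129.97 and 140.4 FPKM in root and 31.997, 43.7 and 48.9 in stem, against 0.474, 1.16 and 0.816 in leaf and 0.241, 0 and 1.08 in flower. Root minus stem was 1.61 (SE 0.095) in the one and 1.63 (SE 0.247) in the other.

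Other pairs joined genes of unequal level. Row 606 (1877 bases) averaged 35.0 FPKM in root and 35.3 in stem, a level far below the 346 and 395 FPKM of its neighbour row 607, with root minus stem at -0.02 and -0.19. Rows 12722 (597 bases) and 12723 (1203 bases) leaned to root by 1.77 and 1.70, at 114 and 74.5 FPKM in root and 32.8 and 22.3 in stem. Rows 19390 (2473 bases) and 19391 (372 bases) both leaned to stem, at 127 and 26.4 FPKM in root and 175 and 32.5 in stem. Rows 19608 (528 bases) and 19609 (2232 bases) were both higher in flower than in leaf by m, at 1.88 and 9.47 FPKM in leaf and 3.02 and 13.1 in flower. These 4 pairs were chosen with their values in view.

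**Figure D5:**
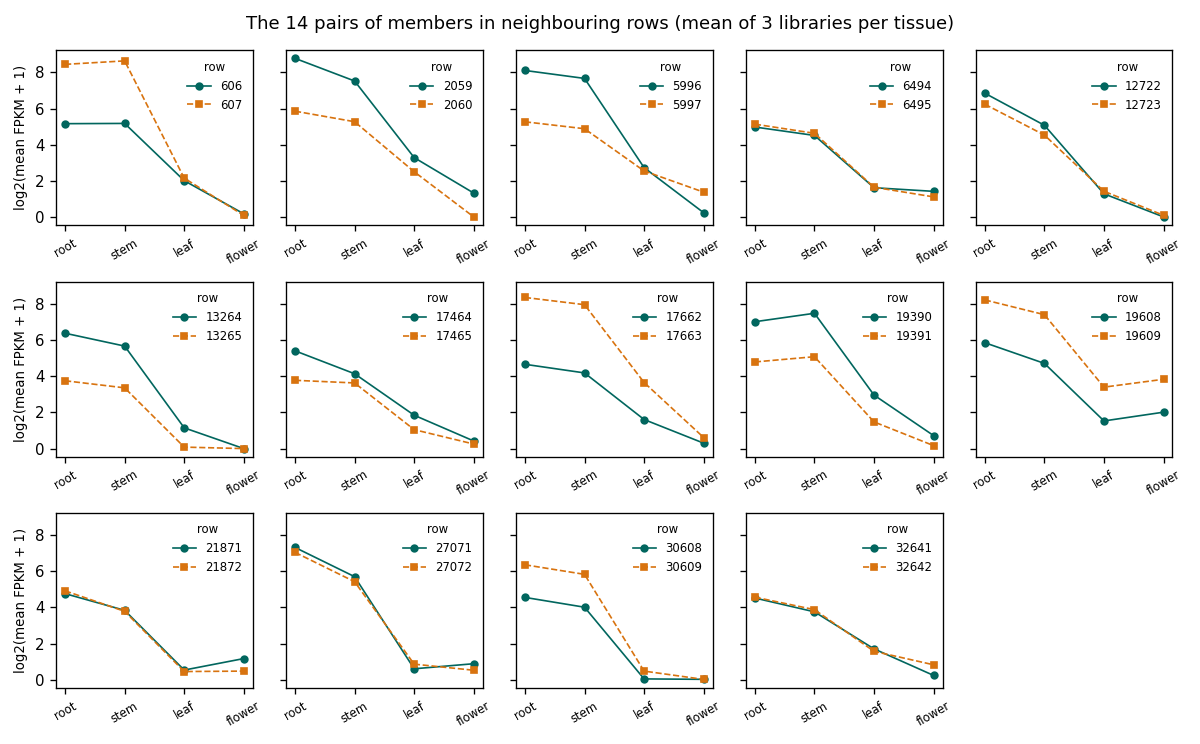
Mean level per tissue, as log2(mean FPKM + 1) over 3 libraries, of the 14 pairs of members in consecutive rows of the table, 1 panel per pair. Lines join the 4 tissues of a row; both rows lean to the same side of root and stem in every panel, at levels that are close in some pairs (6494 and 6495) and far apart in others (606 and 607).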

How the data were processed

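The authors deposited FPKM per gene for 12 libraries, 3 each of root, stem, leaf and flower. HTSeq, HISAT2, fastp and R 3.2.0 are named, per the submitters' processing notes, with no role stated. Strandedness, gene annotation and genome build were not given in the sources used here. Library totals, lengths and whole reads were recovered from the FPKM steps for 100% of the 26625 rows above 0, within 0.01 reads; the length comes from the lowest run of lengths that give whole reads, and may be too short for rows with few reads.

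limma 3.58.1 in R 4.3.3, with a mean-variance trend and 8 residual degrees of freedom, was fitted to log2(FPKM + 1) of the 20769 genes that reached 1 FPKM in 3 or more libraries. Benjamini-Hochberg adjustment ran over all of them within each pair of tissues, and the fit was tested on simulated data. FPKM of low genes on this scale understate the change. Python 3.11.15 was used for the rest.

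Members, thresholds and the rule for named rows were chosen with earlier results of these data known. Named are rows with the largest and smallest gaps, those just outside, the highest levels, the most unequal root and stem or leaf and flower levels, and neighbouring rows. No longest run of neighbours stood out, since 14 tied. Alternatives covered the pseudocount, scaling, filter, limits of the rule, trend, replicate block and each library left out. Gene lists that need names were not used.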

Additional observations from a re-analysis of the deposited data

How the results depend on the processing

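Without the cap of 300, the rule gave 440 rows with a pseudocount of 0.1, 545 at a smallest gap of 1.5 and 85 at a gap of 3, against 279. Median-ratio scaling gave 193 rows, 190 of them members; the median of root minus flower over all genes tested was 0.01 after it and 0.61 before. After that scaling 1 member was called higher in stem than in root, against 0, and 15 higher in flower than in leaf, against 6. Leaving out single libraries or replicate numbers gave 271 to 285 rows by the rule. The same 245 members stayed in through all 12 turns without a library, and 239 through all 3 turns without a replicate number. A single turn kept 267 to 279 members without a library and 262 to 268 without a replicate number. The limma fit was repeated without single libraries, but not without a replicate number. Among the members this gave 278 to 279 called in all 4 pairs, 75 to 78 higher in root than in stem and 0 higher in stem. It gave 144 to 150 higher in leaf than in flower and 6 to 7 higher in flower. Of 828 picks with a replicate number held out, 722 kept a gap of 2. The other counts stayed within 1.5 times.

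Same-numbered libraries of different tissues did not vary together, with correlations of their deviations from -0.036 to 0.025, and 6 of 12 libraries correlated best with their own number. A replicate block left the counts at 279 in all 4 pairs, 78 for root over stem, 0 for stem over root, 146 for leaf over flower and 6 for flower over leaf. Of 936 values of 52 named differences under the alternatives, 6 lost the call, 8 gained it and none that had been called changed sign. Of 390 values of the gap of named rows, 42 moved by the SD between libraries or more and 348 did not. Low read numbers limit the values most in flower, where the median member had 16.7 reads per library. The flower totals, at 29363997 to 30488919 reads, lay within the range of the other libraries.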
